A study of Mus musculus with 8 samples.

Results

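The genes described here mark T cells and natural killer (NK) cells, the lymphocytes that recognise antigen through a clonal receptor or kill stressed cells without one. The set holds 35 genes, chosen by name from the 53465 genes of the deposited table and found there through their Ensembl identifiers, all 35 matched. RNA came from the colon of 8 mice on the B6 background, age- and sex-matched and between 7 and 12 weeks of age, after the mice had drunk 2.5% dextran sulfate sodium (DSS), which damages the gut lining, for a week and plain water from then until day 10. The Arg1 ko group was 4 mice with a conditional, cell-specific deletion of Arg1, the gene for arginase 1, and the wild-type group was 4 littermates that kept Arg1. Both groups received DSS, so no untreated colon stands beside them, and the labels name neither the Cre driver nor the cells that lost Arg1. The labels call the tissue colon, while the protocol describes epithelial aggregates freed with 30 mM EDTA and cleared of Peyer's patches.

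A T cell senses antigen with a receptor of 2 variable chains, alpha with beta or gamma with delta, which signals through the attached CD3 chains and the kinases Lck and Zap70. CD4 and CD8 are co-receptors for the antigen-presenting molecules. In the colon many T cells sit between epithelial cells, held there by the integrin chain encoded by Itgae, and many of these intraepithelial lymphocytes carry CD8 and granzymes or a gamma-delta receptor. NK cells share the cytotoxic granule genes with them, so a granzyme alone does not tell them apart. In bulk RNA, fewer cells of a type and less RNA per cell cannot be told apart.

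The values are regularised log2 values (rlog), in which differences of weakly expressed genes are drawn toward 0; they keep no counts, so the depth of each library is unknown. Arg1 itself averaged 5.44 ± 0.28 (SD, n = 4) across wild type, against 5.07 ± 0.14 (SD, n = 4) across Arg1 ko. One library, at 5.02, lay inside the ko range of 4.87 to 5.19; its label is quoted wherever it is used, as the library labelled wild type 3. Sample numbers run separately by genotype; if they mark batches, batch and genotype cannot be told apart. Smooth muscle Acta2 stood at 14.45 to 14.97 in these libraries, from a protocol that purifies epithelium, beside epithelial Vil1 at 13.68 to 14.09 and Muc2 at 16.42 to 17.46; rlog values are not per length and give no order between genes. Among 16380 genes averaging an rlog of 3 or more, 0 passed limma at an adjusted p under 0.05 with all 8 libraries (0.0%), and 1490 had an unadjusted p under 0.05 (9.1%). Without the library labelled wild type 3, 1005 genes passed (6.14%). Of the 35 members 34 reached that mean and were tested. The exception was Ncr1, which encodes the NK receptor NKp46, with rlog values of 1.64 to 2.02 over the 8 libraries.

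None of the 34 tested T and NK cell genes passed limma for a difference between Arg1 ko and wild type (0 of 34; smallest adjusted p = 0.522, range over the alternatives 0.0486 to 0.819). At an unadjusted p under 0.05 there were also 0 of 34, against 9.1% of all tested genes, and in 0 of 34 did the 4 ko values lie apart from the 4 wild-type values, against 4.03% of all tested genes. The mean was higher in Arg1 ko for 20 members and lower for 14, a share of 58.8% higher against 51.2% of all tested genes. The median difference was 0.05 on the rlog scale, against 0.0064 over all tested genes. Leaving out wild type 1 gave 0.13, leaving out wild type 4 gave -0.14 and leaving out Arg1 ko 1 gave -0.0054, so its sign rests on single libraries.

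The larger differences lay between wild-type mice. Wild type 4 was the lowest of all 8 libraries for 28 of the 34 members (82.4%), while it was the lowest for 24.3% of all tested genes. The exceptions were Cd4, Cd28, Ctla4 and Tcf7, lowest in wild type 2, Eomes, lowest in the library labelled wild type 3, and Ccl5, lowest in Arg1 ko 4. Wild type 1 was the highest of the 8 for 18 members (52.9%, against 26.5% of all tested genes), and the library labelled wild type 3 was the highest for 10 (29.4%, against 12.5%). The median deviation of the members from their own means over the libraries was 0.26 for wild type 1, 0.01 for wild type 2 and 0.17 for the library labelled wild type 3, against -0.51 for wild type 4. In the 4 ko libraries it lay between -0.07 and 0.10. All 4 ko values fell inside the wild-type range for 28 members (82.4%, against 52.3% of all tested genes). The SD was larger in wild type for 31 of 34 members (91.2%), which is the share over all tested genes as well (90.9%). For wild type the median SD of the members was 0.413, against 0.258 over all tested genes, and for Arg1 ko 0.14, against 0.096.

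**Figure D1:**
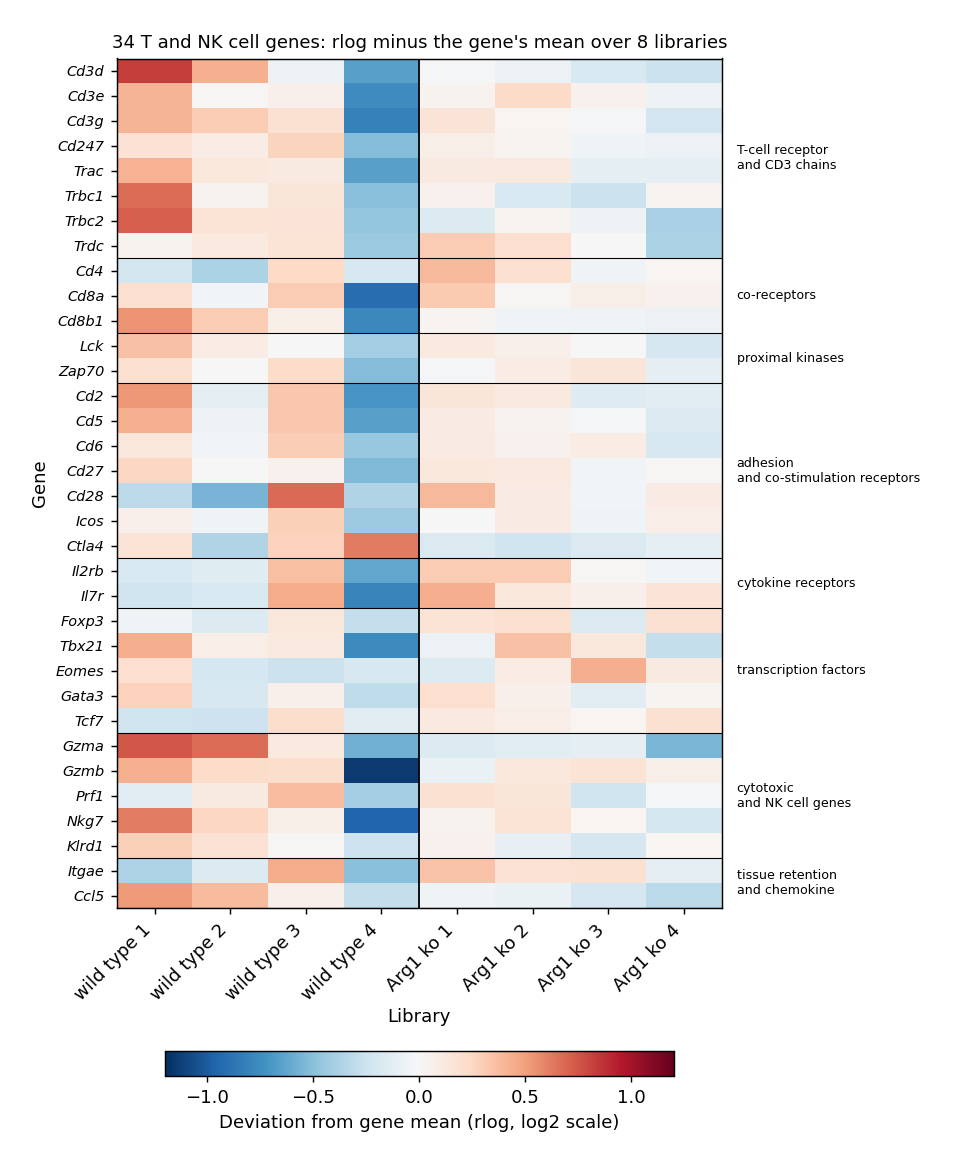
Each row is 1 of the 34 tested genes, each column a library, and the colour is the rlog value minus the gene's mean over the 8 libraries (log2 scale), with genes grouped by role. The column of wild type 4 is blue in every row but that of Ctla4, where it is the highest, and the 4 Arg1 ko columns are mostly pale.

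Several genes for the receptor chains are neighbours on GRCm38. Cd3g (chromosome 9, 44969572 to 44980431, minus strand) and Cd3d (44981786 to 44987339, plus strand) are read in opposite directions with 1354 bases between them, and Cd3e (44998740 to 45009627, minus strand) lies 11.4 kb further on. The 200 bases before the RefSeq start of each (GRCm38.p6) are shown because the 3 genes encode parts of a single complex, and capitals mark matches, on either strand, to the motifs of 4 families of lymphocyte transcription factors.
Cd3g, chr9:44980432-44980631, minus strand: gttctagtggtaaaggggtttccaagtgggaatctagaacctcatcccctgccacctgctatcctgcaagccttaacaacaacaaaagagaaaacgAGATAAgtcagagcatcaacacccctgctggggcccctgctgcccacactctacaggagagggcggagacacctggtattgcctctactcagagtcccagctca
Cd3d, chr9:44981586-44981785, plus strand: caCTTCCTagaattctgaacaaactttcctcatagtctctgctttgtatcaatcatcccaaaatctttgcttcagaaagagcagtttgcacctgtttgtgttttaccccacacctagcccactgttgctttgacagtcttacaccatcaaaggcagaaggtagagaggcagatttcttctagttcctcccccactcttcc
Cd3e, chr9:45009612-45009811, minus strand: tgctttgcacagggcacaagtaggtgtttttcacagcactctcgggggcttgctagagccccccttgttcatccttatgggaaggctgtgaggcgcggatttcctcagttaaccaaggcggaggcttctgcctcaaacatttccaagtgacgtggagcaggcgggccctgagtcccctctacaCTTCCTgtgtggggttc
The windows of Cd3d and Cd3e each hold an ETS match, and that of Cd3g holds a GATA match. The 3' end of the Cd3e window runs a few bases into the first exon of GENCODE transcripts. Promoters were matched for 21 of the 35 members. Of those, 10 hold the ETS motif AGGAAG (47.6%, against 24.5% of 27025 promoters of that length). The RUNX motif TGTGGT is in 6 (28.6%, against 11.3%). The T-box motif TCACAC is in 5 (23.8%, against 9.88%). The GATA motif AGATAA is in 1 (4.76%, against 7.98%). A match is a string of letters and not a bound site.

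Cd3e, the signalling chain needed for every T-cell receptor, had rlog values of 7.47, 7.07, 7.12 and 6.30 in the wild-type libraries 1 to 4 and of 7.10, 7.29, 7.11 and 6.99 in Arg1 ko 1 to 4. Wild type 4 lay below all others and wild type 1 above them, with the ko values between. The wild-type mean was 6.99 ± 0.49 (SD, n = 4), that of Arg1 ko 7.12 ± 0.12 (SD, n = 4), a difference of 0.13 (standard error 0.22, limma adjusted p = 0.797), and -0.10 without wild type 4. Cd3g, its partner chain, had 8.01, 7.91, 7.78 and 6.79 in wild type and 7.75, 7.62, 7.58 and 7.37 in Arg1 ko, a difference of -0.04 (standard error 0.24, limma adjusted p = 0.946). The ko values again lay within the wild-type range, and the difference was -0.32 without wild type 4. Over the 8 receptor and CD3 genes wild type 4 was the lowest library in all 8 and wild type 1 the highest in 6. Their differences between genotypes ran from -0.28 to 0.13, with 2 higher and 6 lower in Arg1 ko and a median of -0.02. Without wild type 4 all 8 were lower in Arg1 ko, with a median of -0.27, and none passed. As wild type 4 was the lowest library in all 8, the wild-type mean is higher without it by construction.

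The alpha-chain constant gene Trac (chromosome 14, 54220521 to 54224206) had 7.36, 7.06, 7.05 and 6.29 in wild type and 7.04, 7.06, 6.83 and 6.82 in Arg1 ko. Its difference was -0.0015 (standard error 0.21, limma adjusted p = 0.998). Trdc, the delta-chain constant gene, lies 71.7 kb from Trac on the same strand. It had 6.07, 6.15, 6.19 and 5.59 in wild type and 6.33, 6.23, 6.03 and 5.65 in Arg1 ko, a difference of 0.06 (standard error 0.19, limma adjusted p = 0.899). Low values were shared here by wild type 4 and Arg1 ko 4. The gamma-chain constant genes, which the annotation names Tcrg-C1, Tcrg-C2 and Tcrg-C4 and which are no members of the set, had differences of 0.10, -0.11 and 0.23, none past the test (limma adjusted p = 0.869, 0.848 and 0.605), and wild type 4 was the lowest library for each.

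Trbc1 and Trbc2, the beta-chain constant genes, stand 6.85 kb apart on chromosome 6 and are near copies. Over 512 compared bases of their GENCODE transcripts 24 differ (95.3% identical), and the longest identical stretch is 259 bases. The 60 bases from 452 to 511 of the compared stretch, where differences are densest, are shown because the other compared bases are nearly identical, and capitals mark the 12 bases that differ between them.
Trbc1: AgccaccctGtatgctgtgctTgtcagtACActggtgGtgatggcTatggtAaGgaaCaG
Trbc2: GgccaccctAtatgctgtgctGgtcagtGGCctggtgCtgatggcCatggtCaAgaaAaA
Their values are therefore uncertain as a split between the copies. Trbc1 differed by -0.18 and Trbc2 by -0.28 between genotypes, with limma adjusted p of 0.729 and 0.601, and wild type 1 was the highest library for each.

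Among the co-receptors, Cd8a (chromosome 6, 71373427 to 71379173), which is carried by cytotoxic and many intraepithelial T cells, had 8.06, 7.83, 8.18 and 6.96 in the wild-type libraries and 8.18, 7.88, 7.95 and 7.93 in Arg1 ko. Wild type 4 stood far below the other 7 libraries, which overlapped. The difference was 0.23 (standard error 0.24, limma adjusted p = 0.687), and -0.04 without wild type 4. Its neighbour Cd8b1, 35.9 kb away, encodes the other chain of the CD8 heterodimer and differed by -0.07 (limma adjusted p = 0.904). Cd4, which marks helper and regulatory T cells and is also made by some macrophages, did not follow this order. It had 7.83, 7.67, 8.29 and 7.86 in wild type and 8.44, 8.24, 8.01 and 8.07 in Arg1 ko, with wild type 2 the lowest and Arg1 ko 1 the highest library. The difference was 0.28 (standard error 0.16, limma adjusted p = 0.529), and 0.40 without the library labelled wild type 3.

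Lck, the kinase that starts the receptor signal, had 8.29, 8.02, 7.93 and 7.51 in wild type and 8.05, 8.00, 7.94 and 7.73 in Arg1 ko. The difference was -0.0097 (standard error 0.16, limma adjusted p = 0.981); it was 0.05 after a correction for transcript length. Zap70, which binds the phosphorylated CD3 chains, had 6.27, 6.08, 6.30 and 5.56 in wild type and 6.07, 6.17, 6.22 and 5.97 in Arg1 ko, a difference of 0.06 (standard error 0.17, limma adjusted p = 0.893). In both kinases the lowest value was that of wild type 4 and the ko values lay within the wild-type range.

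**Figure D2:**
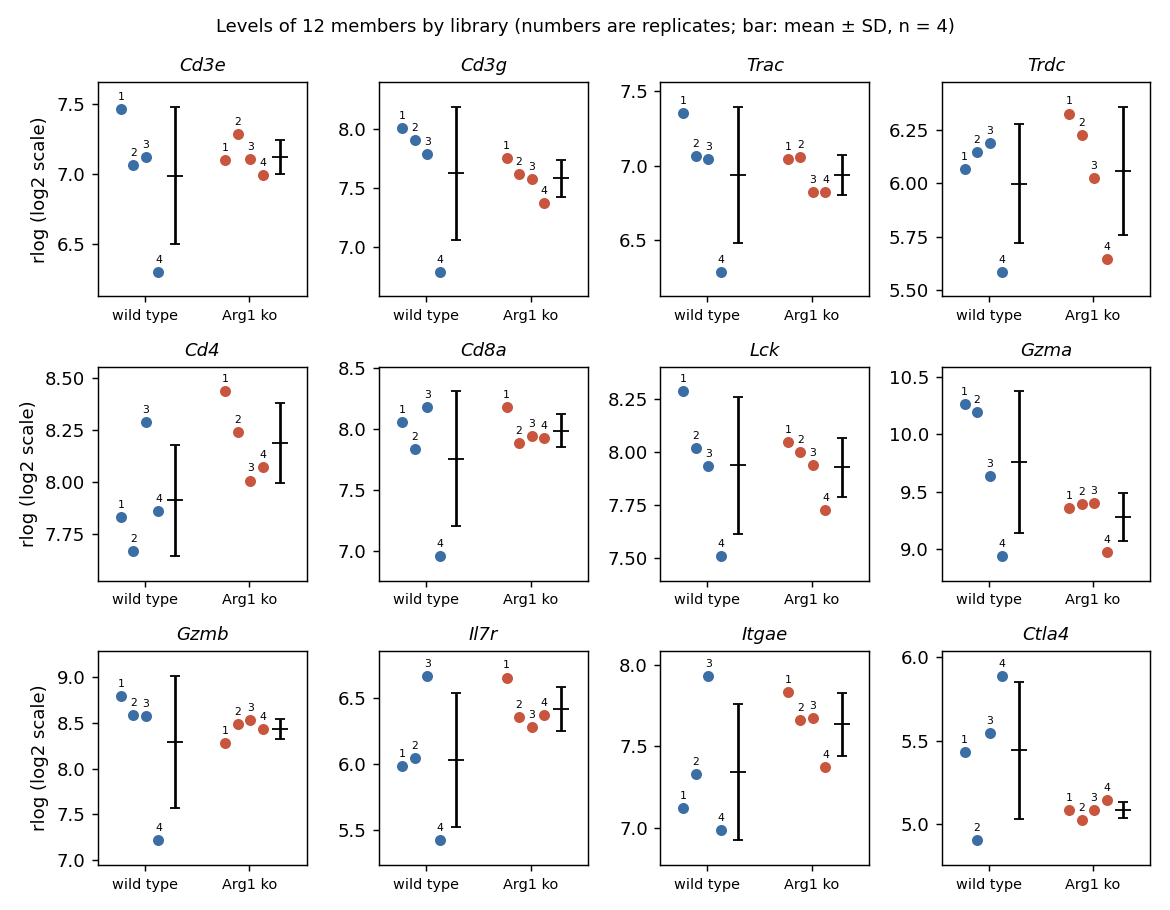
Points are the rlog values (log2 scale) of 12 members in each library, numbered by replicate, with the mean ± SD (n = 4) of each genotype as a bar; vertical axes differ between panels and do not start at 0. Wild type 4 is the lowest point for Cd3e, Cd3g, Trac, Trdc, Cd8a, Lck, Gzma, Gzmb, Il7r and Itgae and the highest for Ctla4, and the genotypes overlap in all 12 panels.

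The 7 adhesion and co-stimulation receptors had differences of -0.36 to 0.28 with a median of 0.03, 4 of them higher and 3 lower. Cd2, which binds CD48 on other cells, had 6.05, 5.42, 5.86 and 4.82 in wild type and 5.67, 5.65, 5.37 and 5.41 in Arg1 ko, a difference of -0.01 (standard error 0.24, limma adjusted p = 0.985); it was 0.13 after the length correction. Cd6, a receptor for the adhesion molecule ALCAM, had 6.31, 6.13, 6.46 and 5.72 in wild type and 6.27, 6.22, 6.26 and 5.97 in Arg1 ko, a difference of 0.03 (limma adjusted p = 0.951) that was -0.0031 with library medians aligned and -0.02 with quantile normalisation. For each of them wild type 4 was again the lowest library.

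Ctla4, the inhibitory receptor of regulatory and activated T cells, ran the other way. Its values were 5.43, 4.91, 5.54 and 5.89 in wild type and 5.09, 5.02, 5.09 and 5.15 in Arg1 ko, so wild type 4 was the highest library and wild type 2 lay below all ko values. It was the only tested member with its highest value in wild type 4 (1 of 34, 2.94%, against 24.7% of all tested genes). The difference was -0.36 (standard error 0.18, limma adjusted p = 0.522), with -0.21 on leaving out wild type 4 and -0.54 on leaving out wild type 2. Ctla4 lies on chromosome 1 between Cd28, 114 kb to its left, and Icos, 62.1 kb to its right, the 2 activating receptors of its family. Icos had its lowest value, 4.18, in wild type 4. Cd28 had 5.15, 4.91, 6.14 and 5.10 in wild type and 5.85, 5.56, 5.43 and 5.56 in Arg1 ko, with the library labelled wild type 3 above all others. Its difference of 0.28 (limma adjusted p = 0.636) became 0.55 without that library, where it was the only member past the threshold (limma adjusted p = 0.0486; 1 of 34, 2.94%, against 6.14% of all tested genes). As that library had the highest value, the wild-type mean is lower without it by construction.

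The window before the RefSeq start of Ctla4 is given for comparison with those of the CD3 genes, beside that of Gzma, since their differences of -0.36 and -0.48 were the most negative of the set. The Ctla4 window lies inside the span of the GENCODE gene, in none of its exons. It holds an ETS match and the Gzma window a RUNX match, in capitals.
Ctla4, chr1:60908825-60909024, plus strand: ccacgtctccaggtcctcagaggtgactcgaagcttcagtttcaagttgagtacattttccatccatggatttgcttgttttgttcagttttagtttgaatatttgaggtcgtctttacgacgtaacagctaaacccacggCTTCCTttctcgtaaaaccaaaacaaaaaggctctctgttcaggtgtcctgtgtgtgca
Gzma, chr13:113100982-113101181, minus strand: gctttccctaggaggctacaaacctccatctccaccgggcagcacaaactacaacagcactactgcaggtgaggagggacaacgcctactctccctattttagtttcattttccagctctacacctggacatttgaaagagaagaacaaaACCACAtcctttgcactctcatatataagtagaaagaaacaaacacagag

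Both cytokine receptor genes had their highest value in the library labelled wild type 3 and their lowest in wild type 4. Il7r, the receptor chain for the survival factor IL-7 that innate lymphoid cells also carry, had 5.99, 6.04, 6.67 and 5.42 in wild type and 6.66, 6.36, 6.28 and 6.38 in Arg1 ko. Every ko value was above 3 of the wild-type values. The difference of 0.39 was the largest positive one of the set and did not pass (standard error 0.23, limma adjusted p = 0.536). It was 0.60 with the library labelled wild type 3 left out, and 0.18 without wild type 4. Il2rb, the shared receptor chain for IL-2 and IL-15, had 6.84, 6.88, 7.39 and 6.40 in wild type and 7.34, 7.33, 7.04 and 6.99 in Arg1 ko, a difference of 0.30 (standard error 0.20, limma adjusted p = 0.558). It was 0.47 with the library labelled wild type 3 left out and 0.14 without wild type 4.

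The 5 transcription factors were all higher in Arg1 ko, by 0.06 to 0.23, with none past the test. Foxp3, which defines regulatory T cells, was near the lower limit of the tested range, at 3.09, 2.97, 3.27 and 2.85 in wild type and 3.30, 3.33, 2.96 and 3.32 in Arg1 ko. The difference was 0.18 (standard error 0.13, limma adjusted p = 0.563) and 0.12 without wild type 4, and the groups overlapped through Arg1 ko 3. Tbx21, which encodes T-bet of type 1 helper, cytotoxic and NK cells, had 5.25, 4.89, 4.93 and 4.05 in wild type and 4.74, 5.16, 4.94 and 4.52 in Arg1 ko, a difference of 0.06 that was -0.18 without wild type 4 (limma adjusted p = 0.922 with all libraries). Tcf7, a factor of naive and memory-like T cells, had 7.20, 7.19, 7.65 and 7.30 in wild type and 7.55, 7.52, 7.46 and 7.63 in Arg1 ko, a difference of 0.20 (standard error 0.13, limma adjusted p = 0.551). Here 3 wild-type values lay below all ko values and the library labelled wild type 3 above them; the difference was 0.31 with that library left out. Eomes, a partner of T-bet, was the only member with its lowest value in the library labelled wild type 3 and its highest in Arg1 ko 3.

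Of the 5 tested cytotoxic and NK cell genes the median difference was 0.0041, with 3 higher and 2 lower, and wild type 4 was the lowest library for all 5. Without it the median was -0.22, and the wild-type mean of all 5 is higher by construction. Gzma (chromosome 13, 113093825 to 113100981), a granule protease, had 10.26, 10.20, 9.63 and 8.94 in wild type and 9.36, 9.40, 9.40 and 8.97 in Arg1 ko. In 3 wild-type libraries Gzma was above every ko value and in wild type 4 below every one. The wild-type mean was 9.76 ± 0.61 (SD, n = 4), that of Arg1 ko 9.28 ± 0.21 (SD, n = 4), a difference of -0.48 (standard error 0.26, limma adjusted p = 0.525). It was -0.75 without wild type 4, -0.31 without wild type 1, -0.33 without wild type 2 and -0.0061 with both wild type 1 and 2 left out. Gzmb, the granule protease that triggers caspases, had 8.79, 8.58, 8.57 and 7.22 in wild type and 8.28, 8.49, 8.53 and 8.43 in Arg1 ko. For Gzmb wild type 4 stood more than 1 unit below the rest, and the difference of 0.14 (standard error 0.30, limma adjusted p = 0.846) was -0.22 without it. The others were Nkg7 (0.0041) and Klrd1 (-0.12), a granule membrane protein and the CD94 receptor chain, and perforin, Prf1 (0.04), with limma adjusted p of 0.995, 0.723 and 0.930.

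Ccl5 and Itgae differed in opposite directions. Ccl5, a chemokine stored by cytotoxic lymphocytes, had 9.63, 9.50, 9.19 and 8.84 in wild type and 9.07, 9.04, 8.92 and 8.79 in Arg1 ko, a difference of -0.33 (standard error 0.17, limma adjusted p = 0.522). It was -0.22 without wild type 1 and -0.054 with both wild type 1 and 2 left out. Itgae, the integrin chain that binds E-cadherin on epithelium, had 7.12, 7.33, 7.93 and 6.99 in wild type and 7.83, 7.66, 7.67 and 7.37 in Arg1 ko. All 4 ko values of Itgae were above 3 of the wild-type values and below that of the library labelled wild type 3, for a difference of 0.29 (standard error 0.20, limma adjusted p = 0.565). It was 0.49 with that library left out (limma adjusted p = 0.0717) and 0.17 without wild type 4. As the library labelled wild type 3 had the highest value of Itgae, the wild-type mean is lower without it by construction.

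**Figure D3:**
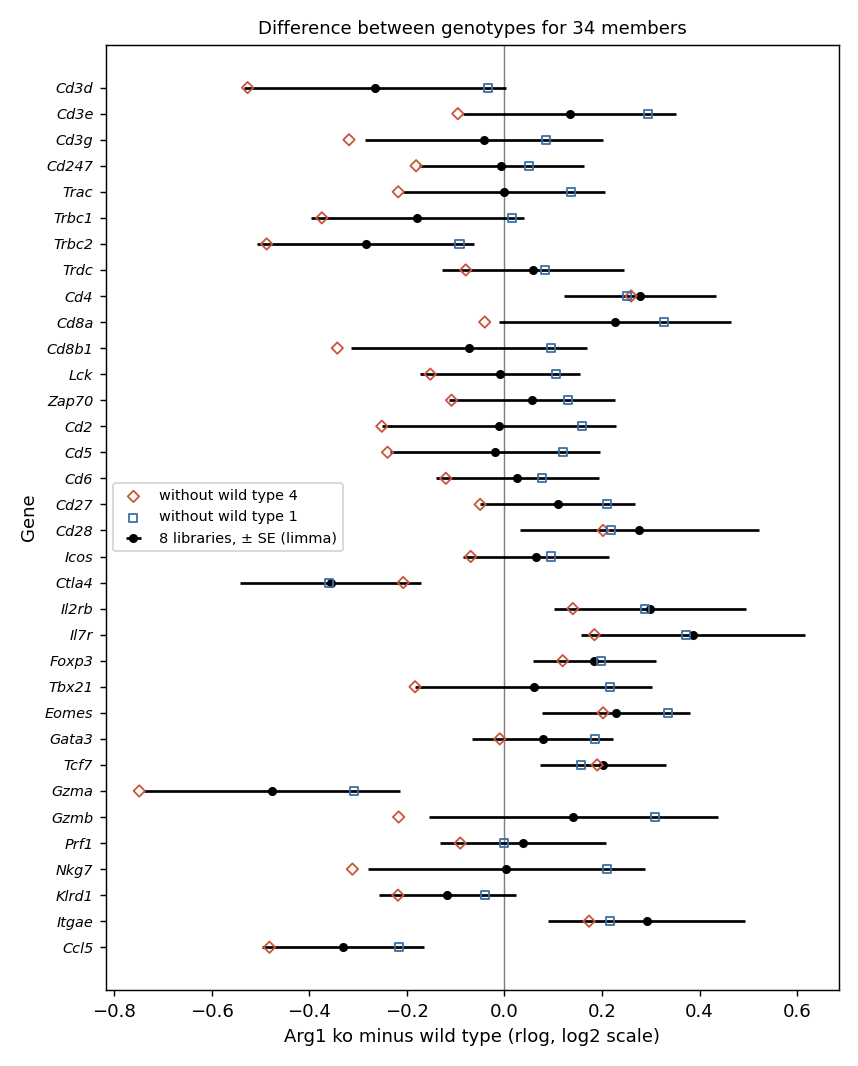
Each filled point is the difference between genotypes of 1 of the 34 tested genes (Arg1 ko minus wild type, rlog, log2 scale) with its limma standard error, the open diamond the value without wild type 4 and the open square that without wild type 1. The points run from -0.48 for Gzma to 0.39 for Il7r, and the diamond lies left of 0 for all 8 receptor and CD3 genes and all 5 cytotoxic and NK cell genes. Wild type 4 was the lowest library for each gene of these 2 roles, so their diamonds lie left of the points by construction.

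The members split by the length of their transcripts. The 19 members higher in wild type 1 than in the library labelled wild type 3 had a median longest transcript of 1483 nt, and the 15 members higher in the latter had 3241 nt. Across the 34 members, Spearman's rho between length and the difference of these 2 libraries was -0.721, and over 16361 tested genes with a known length it was -0.624, so the pattern runs through the whole table. The same holds between genotypes, where rho of length with Arg1 ko minus wild type was 0.703 over the members and 0.456 over all of those genes. Genes are not independent replicates, and these are descriptions without a test. The short transcripts of Ccl5 (668 nt), Trbc2 (692 nt), Trbc1 (737 nt) and Gzma (996 nt) belong to the members with negative differences, and the long ones of Il7r (3540 nt), Itgae (3845 nt), Il2rb (4194 nt) and Cd28 (4347 nt) to those with positive ones. Not all followed this: short Nkg7 (881 nt, 0.0041) and Trac (935 nt, -0.0015) and long Trdc (3865 nt, 0.06) and Cd6 (4683 nt, 0.03) differed little. With a length correction fitted to each library over all genes, Gzma differed by -0.32, Ccl5 by -0.18, Il7r by 0.36 and Itgae by 0.25, and 24 members were higher in Arg1 ko in place of 20. Wild type 4 remained the lowest library for 27 of 34 members after that correction, while wild type 1 was the highest for 11 in place of 18. No measure of RNA integrity per library was used here, and its part in these values was not tested.

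**Figure D4:**
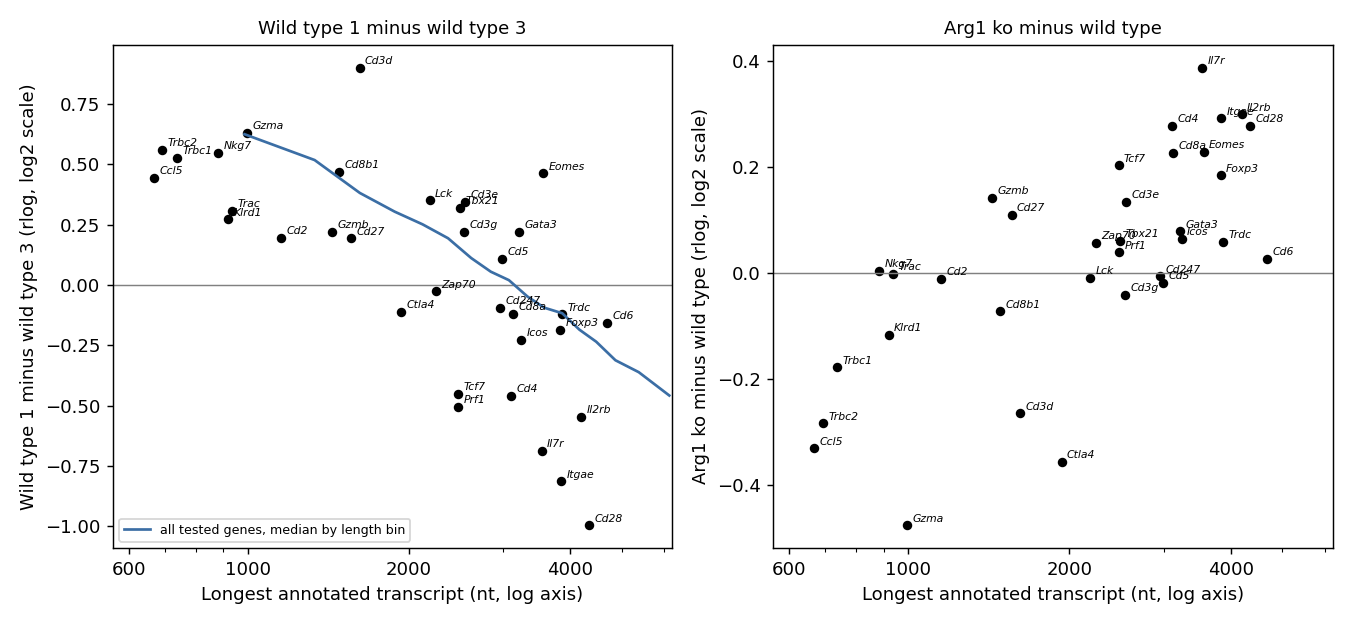
Points are the 34 members, placed by the longest annotated transcript (nt, log axis) and by the difference between wild type 1 and the library labelled wild type 3 on the left or Arg1 ko minus wild type on the right (rlog, log2 scale). The line on the left joins medians of all tested genes in bins of length; the shortest, Ccl5, Trbc2 and Trbc1, lie above 0 on the left and below it on the right.

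Differences between 2 members within a library leave out what raises or lowers both alike. They do not leave out transcript length, in which Trdc (3865 nt) and Trac (935 nt), and Gzmb (1436 nt) and Cd3e (2550 nt), differ. In wild type Cd8a minus Cd4 was 0.23, 0.17, -0.11 and -0.90, and in Arg1 ko -0.26, -0.36, -0.06 and -0.15. Wild type 4 was thus low in Cd8a relative to Cd4 as well, and the ko values lay within the wild-type range. The difference between genotypes was -0.05 (standard error 0.27, exact two-sided permutation p = 0.943, adjusted 0.971). Trdc minus Trac, the delta chain against the alpha chain, had wild-type values of -1.29, -0.91, -0.86 and -0.71 and ko values of -0.71, -0.83, -0.80 and -1.18, a difference of 0.06 (standard error 0.16, exact permutation p = 0.629, adjusted 0.971). Foxp3 minus Cd4 differed by -0.09 (standard error 0.12, exact permutation p = 0.429, adjusted 0.971), and Gzmb minus Cd3e by 0.0070 (standard error 0.15, exact permutation p = 0.971, adjusted 0.971). Foxp3 stood near the lower limit of the tested range, where rlog shrinks differences. Cd4 is also made by some macrophages, so neither difference with Cd4 measures a share of T cells alone. The 4 comparisons used the 70 assignments of 8 libraries to groups of 4, for which 0.0286 is the smallest p possible; the p-values were adjusted over these 4. With the length correction Trdc minus Trac turned to -0.14 and Gzmb minus Cd3e was 0.10. A p that misses the threshold does not show the values to be the same.

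**Figure D5:**
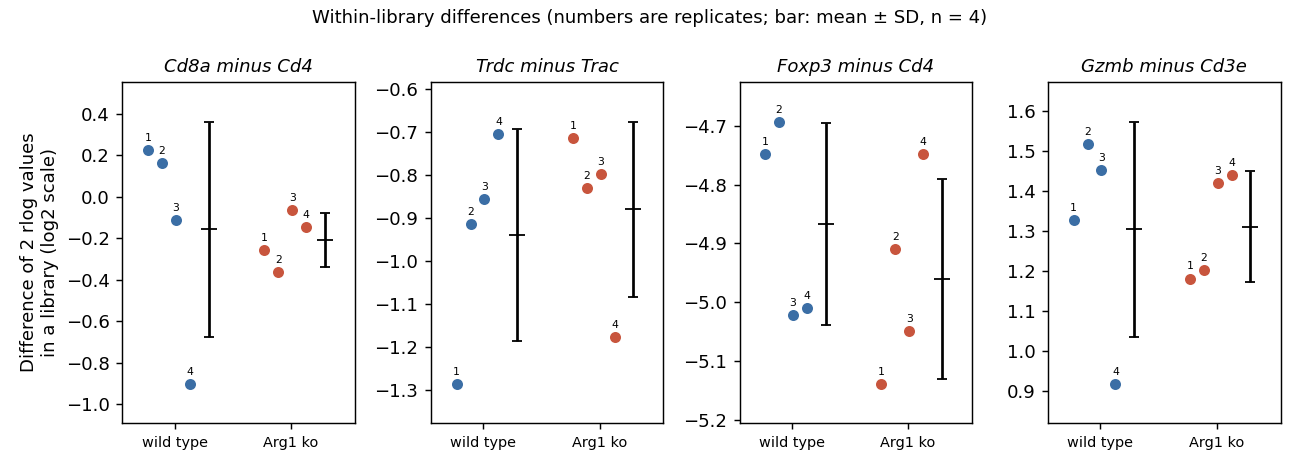
Points are the differences between the rlog values of 2 genes in the same library (log2 scale), numbered by replicate, with the mean ± SD (n = 4) of each genotype as a bar; axes do not start at 0. The genotypes overlap in all 4 panels, and wild type 4 is the lowest point for Cd8a minus Cd4 and for Gzmb minus Cd3e.

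In 7 further lists of genes around these members limma called 0 genes with 8 libraries. At an unadjusted p under 0.05 there were 1 of 18 homing receptors (Ccr7) and 2 of 21 tissue signals (Il18 and Ccl20). There were also 2 of 20 NK and innate lymphoid genes, among them Nfil3, and 0 in the other lists. The share over all tested genes was 9.1%. Each of those named was lower in Arg1 ko. Of 27 tested other genes of T-cell receptor signalling the median difference was 0.03, with 15 higher and 12 lower. Among those of smallest p were Bcl10 (-0.23), an adaptor that carries the signal to NF-kB, and Cd226 (0.32), an activating receptor. With the library labelled wild type 3 left out, 2 of the 27 passed, against 6.14% of all tested genes. Among them was Bcl10 (-0.33, limma adjusted p = 0.0492). As that library had the lowest wild-type value of Bcl10, the wild-type mean is higher without it by construction. Of 18 homing and retention receptors 10 were higher and 8 lower, with a median of 0.12, among them Ccr7 (-0.40), which guides cells to lymph nodes, and Cxcr3 (0.30), a receptor of effector cells. Wild type 4 was the lowest library for 12 of these 18 and for 11 of the 27 signalling genes, and the library labelled wild type 3 the highest for 13 and 14. Of 21 cytokines and effector ligands only 9 were tested, 3 higher and 6 lower with a median of -0.13, led by Ltb (-0.34) and Tnf (-0.39), which encode members of the tumour necrosis factor family, and by Tnfsf14 (0.18). Of 14 inhibitory receptors and related genes 5 were higher and 9 lower, with a median of -0.07; Pdcd1, which encodes PD-1, differed by -0.22, Cd96 by -0.14 and Tox by -0.13. Of 14 tested genes of gamma-delta and intraepithelial lymphocytes 9 were higher and 5 lower, with a median of 0.09, led by the adaptor Hcst (-0.34), the aryl hydrocarbon receptor Ahr (0.24) and the chemokine Xcl1 (0.27). Apart from the inhibitory receptors, the signs of these medians rest on single libraries. The median of the inhibitory receptors lay between -0.11 and -0.03 over leaving out each library. Without wild type 4 the medians were -0.04 for signalling genes, -0.07 for homing receptors, -0.07 for gamma-delta and intraepithelial genes and -0.25 for cytokines. With the library labelled wild type 3 left out the first 3 were 0.11, 0.27 and 0.19. On leaving out wild type 1 the cytokine median was 0.07 and that of the inhibitory receptors -0.03.

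Signals from the tissue to lymphocytes had a median difference of -0.0037, with 10 of 21 tested genes higher and 11 lower; over leaving out each library it lay between -0.03 and 0.05. Il18, a cytokine of the epithelium that drives interferon gamma in T and NK cells, had 9.99, 10.17, 9.20 and 9.67 in wild type and 8.87, 8.98, 9.35 and 9.33 in Arg1 ko. Apart from the library labelled wild type 3, the wild-type values lay above all ko values. The difference was -0.62 (standard error 0.21, limma adjusted p = 0.522), and -0.81 without that library (limma adjusted p = 0.0355). Il18 was 1 of 21 to pass there, against 6.14% of all tested genes. As that library had the lowest wild-type value of Il18, the wild-type mean is higher without it by construction. Ccl20, which attracts cells with the receptor CCR6, differed by -0.37, and Btnl6, a butyrophilin-like molecule of gut epithelium, by 0.37 (limma adjusted p = 0.522 for each). Of 20 tested other genes of NK and innate lymphoid cells 11 were higher and 9 lower, with a median of 0.0024, which was -0.10 without wild type 4 and 0.06 with the library labelled wild type 3 left out. For 3 of the 20 the ko values lay below all wild-type values, against 1.67% of all tested genes. Among them were Nfil3 (-0.73) and Klra7 (-0.26), with a limma adjusted p of 0.522 each. Nfil3 encodes a transcription factor that is not limited to lymphocytes and had its highest value, 10.28, in wild type 4, and Klra7 encodes an NK receptor of a family of close copies, between which reads may have been split. Nfil3 passed without the library labelled wild type 3 (-0.87, limma adjusted p = 0.0488), as 1 of the 20, against 6.14% of all tested genes. That library lay below the wild-type mean of Nfil3, so the wild-type mean is higher without it by construction.

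Markers of other cell types also differed between these libraries. In wild type 4, the median deviation was -0.70 for 6 plasma cell markers, -0.34 for 9 B cell markers and -0.19 for 12 macrophage and dendritic cell markers, of which 6, 8 and 11 lay below their own mean. It was -0.20 for 8 fibroblast markers, 5 of them below their mean. It was 0.35 for 6 endothelial markers, 0.20 for 7 neutrophil markers and 0.11 for 10 epithelial markers. Of these, 0, 3 and 3 lay below their own mean. The library labelled wild type 3 stood at 1.11 for the B cell and follicle markers, all 9 of them above their mean, against -0.37 to 0.14 in the other 7 libraries. The median of the 8 fibroblast markers lay between -0.36 and 0.06 in the wild-type libraries and between 0.11 and 0.17 in Arg1 ko. For 3 of these 8 the ko values lay above all wild-type values, against 2.36% of all tested genes. The mean was lower in Arg1 ko for 2 of the 8. The median of the red blood cell markers was highest in wild type 1, at 1.44. No listed marker was at 0 in all libraries. The part of these cells in the values of the T and NK cell genes was not tested.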

How the data were processed

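Stranded mRNA libraries (Illumina) were prepared from 1000 ng RNA each, per the labels' protocols. The submitters' processing notes list DESeq2 1.16.1, featureCounts, Subread 1.5.3, STAR 2.5.2b and BWA 0.7.14-r1136, and the build GRCm38, with no order, options, annotation or strand setting. The values the authors deposited are regularised log2 values per gene and library, shrunken toward each gene's mean. Counts and depth cannot be recovered from them.

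Columns were matched to samples by label, and replicates were numbered by accession order, which pairs nothing. The labels describe separate mice, and p-values cover only the spread among these 8. No 2 libraries were closer than 23.8 in Euclidean distance. Symbols, coordinates and transcript lengths came from GENCODE vM21 (GRCm38), with a symbol for 53360 of 53465 IDs. Genes averaging an rlog of 3 or more went into limma 3.58.1 under R 4.3.3 (variance trend, two-sided, Benjamini-Hochberg over all 16380 genes, threshold 0.05). The method was tested on simulated data with independent genes and the same SD in both groups. In these data the SD was larger in wild type for 90.9% of tested genes, a setting that the simulation did not cover. Promoter windows came from RefSeq (GRCm38.p6).

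Members, roles and lists were chosen with earlier results of these data known. Values by library were given for the 2 members of highest mean in each of 8 roles, the 3 of smallest p in each direction, and the parts of the within-library differences; of each other list the 3 genes of smallest p were named, except some that are not reported here. Arg1 was given as a check. Cd28, Cd8b1, Icos, Trbc1, Trbc2, Eomes, Nkg7, Klrd1 and Prf1, the gamma-chain genes and those passing without the library labelled wild type 3 were named after their values were seen. Alternatives covered the filter, scaling, prior, threshold and libraries; the length correction (natural spline, 5 degrees of freedom, per library) was chosen after seeing the data.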

Additional observations from a re-analysis of the deposited data

Results flagged for a closer look

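Values far from the other 3 libraries of their genotype (a gap above Dixon's critical value for 4 values) were found in 4 of 48 groups of 4; chance gives about 1 in 20 groups. Gzmb in wild type 4 was at 7.22, against 8.57 to 8.79 in the other wild-type libraries. Gzma in Arg1 ko 4 was at 8.97, against 9.36 to 9.40 in the other ko libraries. Cd6 in Arg1 ko 4 was at 5.97, against 6.22 to 6.27. Foxp3 in Arg1 ko 3 was at 2.96, against 3.30 to 3.33.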

How the results depend on the processing

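Without depth or counts, counting error could not be separated from differences between mice, and 4 libraries a group, 1 of them with Arg1 in the ko range, limit what could be called. No paired analysis was possible because replicates were numbered by accession order, which pairs no mice. Over leaving out each library in turn, limma called 0 to 1005 of all genes and 0 to 1 members; 1005 and 1 came without the library labelled wild type 3, and every other alternative gave 0 for both. The median member difference lay between -0.14 and 0.13 over these fits and was 0.17 without wild type 1 and 2, 0.06 without the filter, -0.0015 at a mean rlog of at least 5, 0.02 with library medians aligned, 0.0091 with quantile normalisation and 0.08 with the length correction.

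Of 338 values of the 20 named members under alternatives, 302 kept their direction and 36 turned it, and 0 passed the threshold. Where a left-out library held the highest or lowest wild-type value of a gene, the wild-type mean moves by construction. Over leaving out each library, the sign turned for 11: Cd2 (-0.25 to 0.16), Cd3e (-0.10 to 0.29), Cd3g (-0.32 to 0.086), Cd6 (-0.12 to 0.13), Cd8a (-0.040 to 0.37), Gzmb (-0.22 to 0.31), Lck (-0.15 to 0.11), Tbx21 (-0.18 to 0.22), Trac (-0.22 to 0.14), Trdc (-0.079 to 0.20) and Zap70 (-0.11 to 0.14). Without wild type 1 and 2 it turned for Cd3g (0.29), Trac (0.27), Lck (0.20) and Cd2 (0.19). It turned with the length correction for Trac (0.15), Lck (0.048), Cd2 (0.13) and Cd6 (-0.054), and for Cd6 with medians aligned (-0.0031) and quantile normalisation (-0.023). Of the within-library differences, Cd8a minus Cd4 lay between -0.30 and 0.076 over leaving out each library, Trdc minus Trac between -0.055 and 0.16, Gzmb minus Cd3e between -0.12 and 0.078, and Foxp3 minus Cd4 between -0.16 and -0.034. Without wild type 1 and 2 the sign turned for Cd8a minus Cd4 (0.30), Trdc minus Trac (-0.10) and Foxp3 minus Cd4 (0.054), and with the length correction for Trdc minus Trac (-0.14). The cause was not tested.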

Other observations

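Cytokines by which T and NK cells act were below the tested range. Ifng, which encodes interferon gamma, had rlog values of 1.43 to 1.74 over the 8 libraries, with a mean of 1.54 in each genotype. Il22, a cytokine that acts on epithelium, had 0.28 in wild type and 0.24 in Arg1 ko, and Il17f had 0.19 and 0.11. Il17a stood at -2.10 in both genotypes, near the lowest values of the table. Lta, which encodes lymphotoxin alpha, came nearest to the tested range, at 2.56 to 3.10. Of the 21 cytokines and ligands 12 were not tested for this reason, and at these levels rlog shrinkage leaves little room for a difference.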
